A study of Mus musculus with 3 samples.

Results

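H3K4me3 regions with an H3K27me3 gap inside are places where H3K27me3 was called over both ends of an H3K4me3 region but not over all of its length. They were chosen by position alone: the first and the last base pair of the H3K4me3 region had to lie in H3K27me3 regions, and at least 1 bp between them had to lie outside every H3K27me3 region. On chromosomes 1 to 19 of the mouse genome build mm9, 593 of 21098 H3K4me3 regions met this rule, or 2.81% (95% Wilson interval 2.60 to 3.04%), and these are called members here. They made up 8.34% (7.72 to 9.002%) of the 7113 autosomal H3K4me3 regions that touched H3K27me3 at all. The choice itself used the overlap of the lists, so counts, widths and reaches of H3K27me3 at these regions are given as descriptions, with no test.

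The lists came from chromatin immunoprecipitation followed by sequencing (ChIP-seq) of neurospheres, floating cultures grown from cells of the subventricular zone of wild-type (WT) male C57BL/6 mice. The series has 3 samples: 1 library precipitated with a Millipore antibody to H3K4me3, 1 with a Millipore antibody to H3K27me3, and 1 of input DNA without antibody, which was not analysed here. The deposited lists held 21998 H3K4me3 and 117512 H3K27me3 regions, and the study used them to describe the chromatin at promoters of long noncoding RNAs in adult neural stem cells. With 1 library per mark no value has a replicate error. Intervals below cover counting error only and treat regions as independent, which neighbouring regions are not. Gene positions on mm9 were not used here, so regions are named by coordinates, counted from 1.

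H3K4me3 is placed at promoters by the COMPASS family of methyltransferases and is found on the nucleosomes that flank transcription start sites. H3K27me3 is placed by Polycomb repressive complex 2, spreads over larger stretches and goes with silenced genes. Promoters that carry both marks are called bivalent and were first described at developmental genes in embryonic stem cells. Start sites themselves are often low in nucleosomes. A gap in these lists means only that the caller did not report H3K27me3 there. In a bulk culture, less of a mark in every cell and its presence in fewer cells cannot be told apart, nor can both marks be placed on the same allele.

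The gap was usually small beside the H3K4me3 region that held it. The widest gap of a member had a median width of 231 bp (95% binomial interval of the median 197 to 253 bp) and quartiles of 103 and 529 bp. H3K4me3 regions of the members had a median width of 2215 bp (2073 to 2290 bp), and all gaps together took a median of 10.7% of it (9.66 to 12.2%). The gaps took under 10% of the region in 281 of 593 members (47.4%) and at least 50% in 58 (9.78%). By width, 146 members had a widest gap under 100 bp, 288 had 100 to under 500 bp, 91 had 500 to under 1000 bp and 68 had 1000 bp or more. The range thus ran from joints between nearly touching H3K27me3 regions to H3K4me3 regions with H3K27me3 only at their rims.

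The members just inside the rule were held there by very few base pairs. On chr4:135128651-135130186, a region of 1536 bp, and on chr8:11699881-11700612, a region of 732 bp, the gap was 1 bp wide. On chr1:137715067-137716061 it was 2 bp wide. H3K27me3 regions of the deposited list never touch, and the smallest distance between autosomal neighbours was 1 bp. A wholly covered H3K4me3 region therefore always lay in a single H3K27me3 region, and 18 members had a widest gap under 10 bp. Just outside the rule, H3K27me3 missed an end by 1 bp on chr1:60099060-60100658, with an inner gap of 290 bp. It also missed an end by 1 bp on chr10:14465815-14467291, with an inner gap of 485 bp, and on chr13:116982954-116983375, with no inner gap. Among the 2870 H3K4me3 regions with H3K27me3 over 1 end, 396 had such an inner gap, and in 115 of these 396 the other end was missed by at most 100 bp.

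The 5 widest gaps were all in H3K4me3 regions at the top score. Deposited scores of both marks pile up at 3100 and a few lie above it, so top score means a score of 3100 or more throughout. These 5 H3K4me3 regions were 4613 to 5986 bp wide, and wide regions mostly had the top score. At 3000 to under 4000 bp it was reached by 92.9% of 98 members and 98.9% of regions with H3K4me3 alone. The widest gap was 4594 bp, or 80.9% of the 5676 bp region chr8:124427120-124432795, between H3K27me3 regions that scored 98.4 and 115. The next was 4538 bp in chr2:30324757-30330742, between H3K27me3 regions that scored 266 and 276. Both were flanked by H3K27me3 far below its own top score. The third was 4098 bp in chr8:123059010-123063622, where H3K27me3 reached 43 bp inwards over the lower end and 472 bp over the higher end. The region below it scored 1549 and closed an H3K27me3 domain of 211.8 kb, while the region above it scored 75.1. Domains join H3K27me3 regions up to 3 kb apart, so a gap of 4098 bp ends a domain by definition. Whether H3K27me3 beyond this gap belongs with the long domain was not tested. The other two had gaps of 3993 bp (chr1:121314340-121320066) and 3596 bp (chr13:53072835-53078767).

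**Figure D1:**
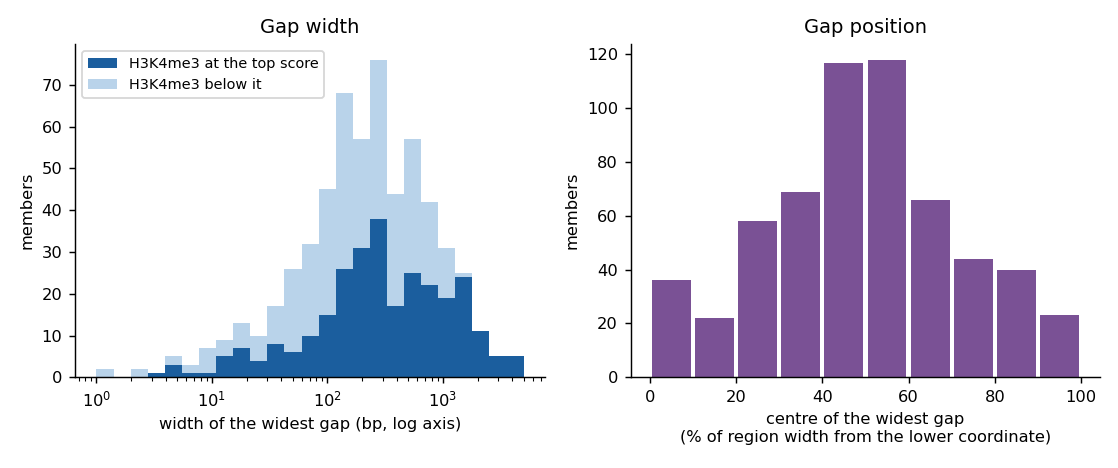
Left, number of members by the width of the widest gap (bp, log axis), stacked by whether H3K4me3 was at the top score. Right, number of members by the place of the gap centre, in 10 equal parts of the H3K4me3 region, from its lower coordinate. Widths centre on 231 bp, gaps of 1000 bp or more are mostly at the top score (60 of 68), and the 2 middle parts hold 117 and 118 members.

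The gap lay near the middle of the H3K4me3 region more often than near its ends. Its centre stood at a median of 49.7% of the region's width from the lower coordinate (95% binomial interval 47.7 to 50.9%), with quartiles of 34.5 and 63.8%. Sides follow coordinates and not strand, so a median near the midpoint does not by itself show that gaps are central. The centre of the gap was in the middle 20% of the region in 235 members (39.6%, 95% Wilson interval 35.8 to 43.6%) and in the outer 20% at either end in 121 (20.4%, 17.4 to 23.8%). Neither side was favoured, with 302 gap centres nearer the lower end and 291 nearer the higher end. The median distance between the centres of gap and region was 297.5 bp, and the gap held the exact centre of the region in 182 members (30.7%).

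Part of this follows from the rule, since a wide gap between covered ends cannot lie far from the middle. The place of the gap was therefore also given as the share of the remaining length on the lower side, which can take any value at any gap width. In 5 equal parts of that share there were 105, 107, 179, 109 and 93 members, so the middle part held 30.2% (26.6 to 34.0%). The middle part held 31.5% (24.5 to 39.4%) of gaps under 100 bp and 34.0% (28.8 to 39.7%) of gaps of 100 to under 500 bp. It held 23.1% (15.6 to 32.7%) at 500 to under 1000 bp and 20.6% (12.7 to 31.6%) at 1000 bp or more. An even spread would put 20% in each part, but the rule need not give an even spread. A single narrow gap near an end needs a wide H3K27me3 region over most of the H3K4me3 region, while a central gap needs narrower ones. Widths of all autosomal H3K27me3 regions had an upper quartile of 1319 bp, while members had a median H3K4me3 width of 2215 bp. The share that the rule alone would give was not tested, so 20% is a reference only. The intervals lie above 20% for gaps under 500 bp and include it for gaps of 500 bp or more. The outermost parts at either end together held 198 members (33.4%, 29.7 to 37.3%). The intervals of the 4 classes overlap, and differences between them were not tested.

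Among members at the top score with a gap of at least 500 bp, the most central gap was 1286 bp wide in chr4:138646911-138649565, a region of 2655 bp. Its centre was 1.5 bp from that of the region, and H3K27me3 covered 686 bp at the lower end and 683 bp at the higher end. H3K27me3 also extended 643 and 791 bp beyond these ends. This member was close to a mirror image of itself in every measure given. In chr8:97055659-97059556 the gap of 2244 bp was 8 bp off centre, but H3K27me3 ended 15 bp beyond the lower end and 787 bp beyond the higher end. In chr5:23855825-23858672 a gap of 651 bp was 9.5 bp off centre, and H3K27me3 went on for 2950 and 2340 bp. A central gap thus came with even and with uneven flanks.

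**Figure D2:**
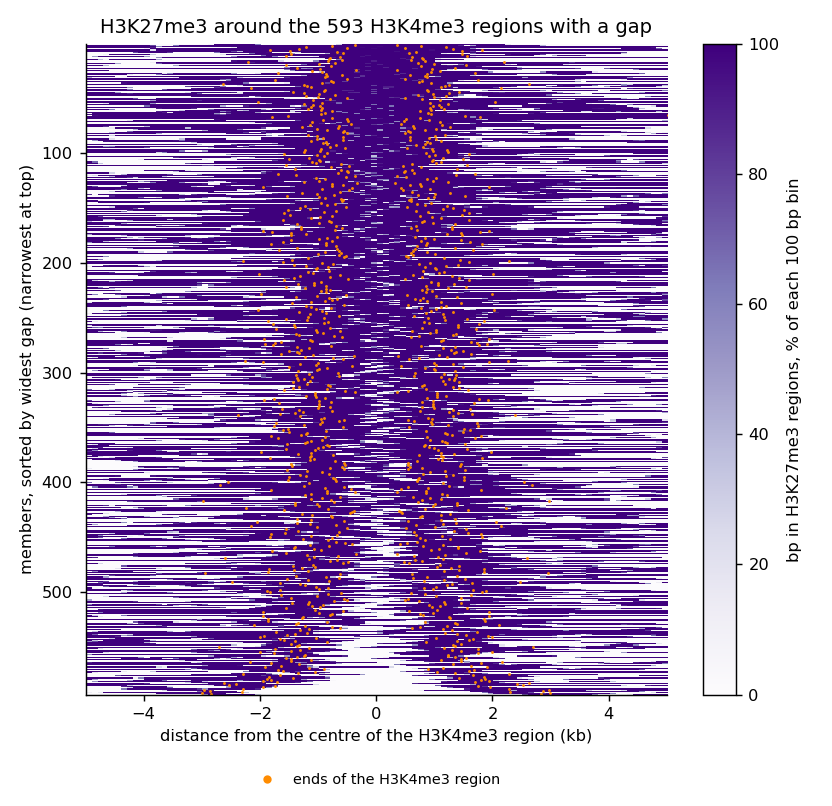
Each line is 1 of the 593 members, sorted from the narrowest widest gap at the top to the widest at the bottom. Colour gives the share of each 100 bp bin in H3K27me3 regions by distance from the centre of the H3K4me3 region (kb), and orange points mark the ends of the H3K4me3 region where these lie within 5 kb. The white gap opens in the middle as its width grows, and flanks of H3K27me3 go on past the orange points. The rule favours both, since the ends must be covered and a wide gap between them cannot lie far from the middle.

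Most members had a single gap. There was 1 gap in 539 members (90.9%), 2 gaps in 52 and 3 gaps in 2. The H3K27me3 regions enclosed between gaps numbered 56 and had a median width of 967 bp, from 375 to 6127 bp, and 3 of them were under 500 bp. The member with 3 gaps that was widest was chr11:3054700-3067023, a region of 12324 bp with a widest gap of 112 bp. It lay in a domain crowded with H3K4me3 regions, described with the domains. The other member with 3 gaps was chr10:119910754-119915519, a region of 4766 bp with a widest gap of 279 bp.

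Inside the H3K4me3 region, H3K27me3 ran in from the lower and the higher end over similar median distances across members. Within a member the sides often differed. The lower side's share of the length outside the widest gap had quartiles of 28.6 and 66.8%. The H3K27me3 region over the lower end covered a median of 818 bp inwards (95% binomial interval 764 to 872 bp), and that over the higher end 842 bp (781 to 905 bp). At least 200 bp were covered inwards from both ends in 413 members (69.6%, 65.8 to 73.2%). In 58 members (9.78%) at least 1 end was covered by under 50 bp, so that these would leave the class with a small shift of a called end. H3K27me3 also stopped under 100 bp beyond at least 1 end in 71 members (12.0%), and under 10 bp beyond it in 10. A small shift of that end could take these out too.

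Outside the H3K4me3 region, single called H3K27me3 regions went on for about 1 kb on each side, but seldom equally far. Reach is measured here from the end of the H3K4me3 region to the outer end of the H3K27me3 region that covers it. Its median was 974 bp (854 to 1131 bp) beyond the lower end and 1014 bp (929 to 1089 bp) beyond the higher end. The lower side was the longer in 299 members and the higher side in 294. Within a member, the longer side had a median of 1634 bp (1523 to 1768 bp) and the shorter 605 bp (528 to 647 bp). These lengths hold for regions as called: with H3K27me3 regions up to 1 kb apart merged, the medians were 4474 bp on the longer and 1434 bp on the shorter side, and with 3 kb they were 11963 and 2954 bp. The longer side was more than 3 times the shorter in 237 members (39.97%) and at most 1.5 times it in 138 (23.3%). Both sides reached 1000 bp or more in 178 members (30.0%), only 1 side did in 241 (40.6%), and neither did in 174 (29.3%). Reaches of the sides went together only loosely across members (Spearman rho = 0.28, n = 593, a description over regions of the same libraries).

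At the long extreme, H3K27me3 went on for over 10 kb on both sides. The member chr6:47612428-47616000 had a 41 bp gap and reaches of 15971 bp at the lower end and 17073 bp at the higher end. On chr8:122788368-122789332 the gap was 44 bp and the reaches were 15114 and 16544 bp, around an H3K4me3 region that scored only 64.4. Reaches on chr8:125201274-125203081 were 11726 and 10799 bp, with a gap of 64 bp. Both flanking H3K27me3 regions were at the top score in each of these 3, and also in the other two by this measure, chr6:47697319-47701390 (10375 and 14030 bp) and chr11:118913652-118915888 (11094 and 7240 bp). Of these 5 only the chromosome 11 member had a gap over 100 bp, at 326 bp. The 2 members on chromosome 6 lay in domains crowded with H3K4me3 regions, described with the domains. Reaches of at least 5000 bp on both sides were found in 15 members (2.53%), and on at least 1 side in 78 (13.2%).

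The most uneven flanks, among members with at least 100 bp on each side, differed by more than 40 times. On chr11:3039051-3049073 H3K27me3 reached 13967 bp beyond the lower end and 249 bp beyond the higher end. This member also lay in a domain crowded with H3K4me3 regions. On chr16:18625659-18627618 it reached 10833 bp on the lower side from a region at the top score, and 228 bp on the higher side from a region that scored 178, with a gap of 263 bp 5.5 bp off centre. On chr8:114253262-114256989 the order was the opposite, with 114 bp on the lower side and 5080 bp on the higher. The longer reach was on the side of the higher H3K27me3 score in 375 of the 541 members whose sides differed in score (69.3%, 65.3 to 73.1%). Score and width go together in the H3K27me3 list (Spearman rho = 0.84 across its 115609 autosomal regions, a description), so reach and score are not separate measures. The longer covered arm inside the H3K4me3 region was on the side of the longer reach outside it in 295 of 593 members (49.7%, 45.7 to 53.8%).

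**Figure D3:**
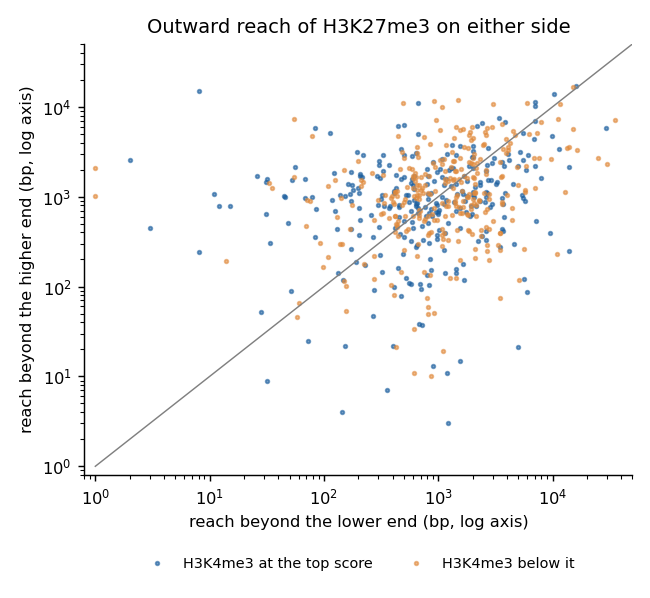
Reach of H3K27me3 beyond the lower end (x, bp, log axis) and the higher end (y, bp, log axis) of each member, coloured by whether H3K4me3 was at the top score. The grey line marks equal reach. Points lie on both sides of it in like numbers (299 and 294) and scatter widely, with medians of 974 and 1014 bp.

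Members with wider gaps had H3K27me3 regions of lower score and smaller width beside the gap. From gaps under 100 bp to gaps of 1000 bp or more, their median width went from 2120.5 to 1349 bp at the lower end. At the higher end it went from 2074.5 to 1561 bp. Score and width go together in this list, and the part of width in the scores was not tested. The weaker of the 2 flanking H3K27me3 regions had a median score of 489 (95% binomial interval 293 to 694) for gaps under 100 bp and 408 (292 to 484) for gaps of 100 to under 500 bp. It was 185 (136 to 291) at 500 to under 1000 bp and 124 (94.9 to 163) at 1000 bp or more. The stronger of the 2 followed the same order, with medians of 2158, 1904, 791 and 559. Both flanking regions were at the top score in 21 of 146 members with gaps under 100 bp and in 31 of 288 at 100 to under 500 bp. This was so in 0 of 91 at 500 to under 1000 bp and 0 of 68 at 1000 bp or more. A count of 0 allows shares of up to 3.30% of 91 and 4.41% of 68 (3 counts of the total). The 95% Wilson intervals used for other shares end higher, at 4.05% and 5.35%. Over all autosomal H3K27me3 regions 2.57% were at the top score and the median score was 112, so even the weaker flanks of the widest gaps were near the middle of the list.

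The share of H3K4me3 regions at the top score went the other way, most clearly at gaps of 1000 bp or more. The intervals of the 3 narrower gap classes overlap. At the top score were 50 of 146 H3K4me3 regions with a gap under 100 bp (34.2%, 95% Wilson interval 27.04 to 42.3%) and 131 of 288 at 100 to under 500 bp (45.5%, 39.8 to 51.3%). The share was 43 of 91 (47.3%, 37.3 to 57.4%) at 500 to under 1000 bp, and 60 of 68 (88.2%, 78.5 to 93.9%) at 1000 bp or more, against 53.0% of all autosomal H3K4me3 regions. Width moved with this, since the median width of the H3K4me3 region was 1849, 2218.5, 2282 and 3194.5 bp in the 4 classes. A wide gap also needs a wide region to hold it. Of the 98 members of 3000 to under 4000 bp, whatever their gap, 92.9% were at the top score. The part of width in the result was not tested. Lower flank scores at wider gaps were seen at either level of H3K4me3. For members at the top score, the weaker flank had a median score of 672, 444, 267 and 126 in the 4 classes. Below the top score it was 359, 330 and 137 in the first 3 classes, and the last had 8 members only. Reach changed less than score. The shorter reach had a median of 647.5 bp (472 to 840 bp) for gaps under 100 bp and 476.5 bp (369 to 662 bp) for gaps of 1000 bp or more. These bounds were chosen after the widths were seen.

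**Figure D4:**
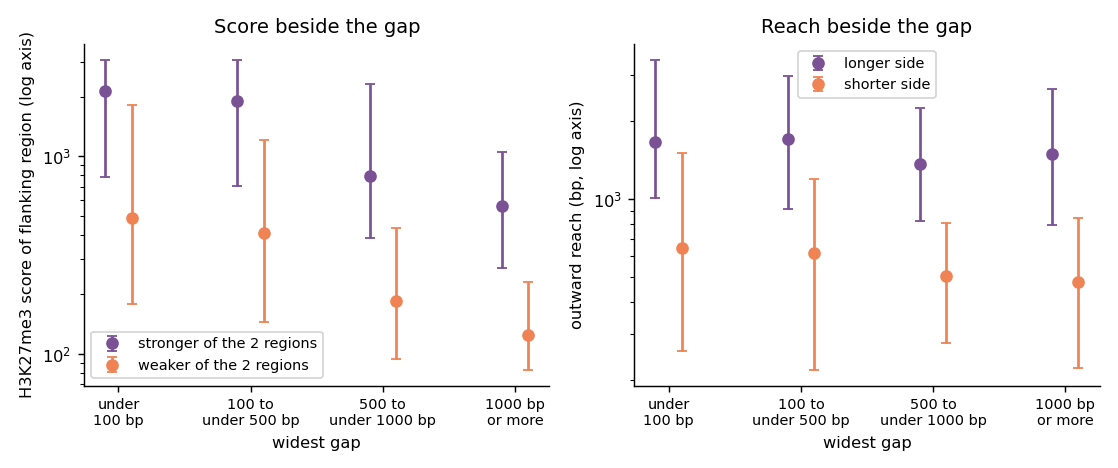
Left, score of the stronger and the weaker flanking H3K27me3 region (log axis). Right, longer and shorter outward reach (bp, log axis), both by width of the widest gap. Points are medians and bars run from the first to the third quartile, over 146, 288, 91 and 68 members. The weaker score goes from 489 at gaps under 100 bp to 124 at 1000 bp or more, while the shorter reach goes from 647.5 to 476.5 bp.

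The members were set beside the other ways in which the marks met on autosomes: 2060 H3K4me3 regions wholly covered by H3K27me3, 2870 with H3K27me3 over 1 end, 1590 with H3K27me3 wholly inside, and 13985 with H3K4me3 alone. Members were wider than wholly covered regions, with medians of 2215 bp (2073 to 2290 bp) and 1394.5 bp (1364 to 1426 bp), and as wide as regions with H3K4me3 alone (2212 bp, 2186 to 2238 bp). A wide region has more room for a gap, so this difference is in part built into the classes. H3K4me3 was at the top score in 284 members (47.9%, 43.9 to 51.9%), in 14.3% (12.8 to 15.8%) of wholly covered regions and in 60.7% (59.9 to 61.5%) of regions with H3K4me3 alone. Among regions of 2000 to under 3000 bp the share was 67.9% (61.3 to 73.9%) of 209 members and 54.1% (48.7 to 59.5%) of 327 wholly covered regions. At that width it was 80.6% (77.4 to 83.4%) with H3K27me3 over 1 end, 89.7% (86.7 to 92.2%) with H3K27me3 inside and 94.3% (93.5 to 94.9%) of 4299 with H3K4me3 alone. At 3000 to under 4000 bp the intervals of members (92.9% of 98, 85.98 to 96.5%) and wholly covered regions (84.4% of 45, 71.2 to 92.3%) overlapped, and the share was 98.9% with H3K4me3 alone. At 1000 to under 2000 bp, where few members were at the top score, the intervals of members (7.86%, 5.03 to 12.1%) and wholly covered regions (4.996%, 3.90 to 6.38%) overlapped too.

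H3K27me3 regions over the ends of members were of lower score than those over wholly covered regions. Counting each H3K27me3 region once per class, the median score was 670.0 (599.8 to 754) over 1172 regions at members and 3100 over 1917 at wholly covered regions, where a single H3K27me3 region spans the whole H3K4me3 region and is wider for that reason. The top score was reached by 234 of the 1172 at members (19.97%, 17.8 to 22.4%) and by 1073 of the 1917 at wholly covered regions (55.97%, 53.7 to 58.2%). The median reach per covered end was 1004.5 bp (925 to 1079 bp) at members and 1050 bp (991 to 1117 bp) at wholly covered regions, with overlapping intervals. Long reaches were a smaller share at members: 5000 bp or more at 93 of 1186 covered ends (7.84%, 6.44 to 9.51%), against 450 of 4120 (10.9%, 10.01 to 11.9%) at wholly covered regions. Both ends of a region enter these shares, so the ends are not independent. At regions with H3K27me3 over 1 end the median reach was 480 bp (455 to 502 bp) and the median score 320.2.

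Farther out, the share of base pairs in H3K27me3 regions was also set beside that at wholly covered regions. H3K27me3 regions held 88.1% of base pairs within 500 bp of the ends of members and 83.2% at wholly covered regions, 46.9% and 47.1% at 2 to 5 kb, and 23.6% and 19.02% at 50 to 100 kb. Around H3K4me3 regions with H3K27me3 over 1 end the shares were 40.9%, 22.5% and 14.2%. Within 500 bp these shares follow from the classes themselves. Over all members together, the lower and the higher side differed by at most 3.12 percentage points in any of the 8 distance ranges. Sides follow coordinates and not strand, so this says little about how even the flanks of a member were. Within classes of gap width some differences were larger. For gaps of 1000 bp or more (68 members) the shares at 1 to 2 kb were 55.3% on the lower and 41.9% on the higher side.

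**Figure D5:**
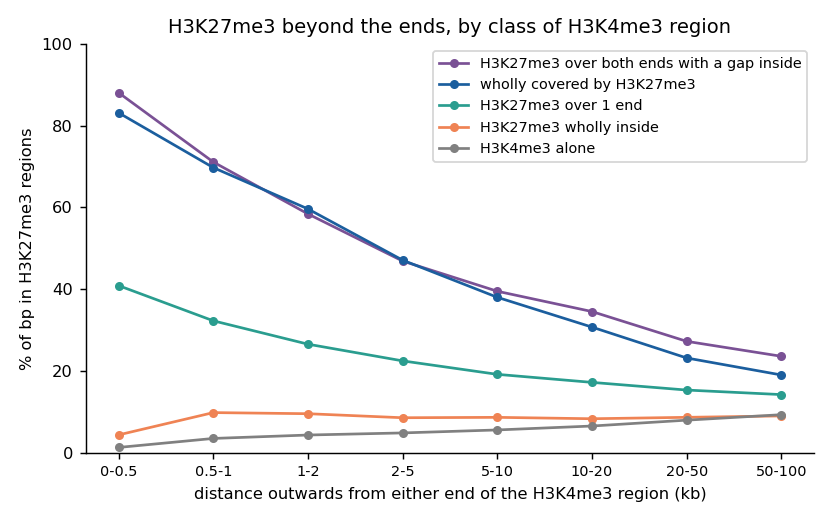
Share of base pairs in H3K27me3 regions (%) by distance outwards from the ends of H3K4me3 regions (kb), over both sides, for 5 classes of autosomal H3K4me3 region. Members and wholly covered regions run close together, from 88.1% and 83.2% within 500 bp to 23.6% and 19.02% at 50 to 100 kb, above the other 3 classes throughout.

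When H3K27me3 regions up to 3 kb apart were merged into domains, members sat in long ones, in part by the rule. A member needs separate H3K27me3 regions over its lower and its higher end, and these spanned a median of 4668 bp. Over all 52317 autosomal domains the median length was 931 bp. H3K27me3 wholly inside an H3K4me3 region is shorter than that region by definition. The part of the classes in the lengths below was not tested. The domain around a member had a median length of 18.8 kb, and 404 members (68.1%, 64.3 to 71.8%) were in a domain of 10 kb or more. That compares with 63.5% (61.4 to 65.6%) of wholly covered regions, 30.3% (28.7 to 32.1%) of regions with H3K27me3 over 1 end and 9.06% (7.74 to 10.6%) of those with H3K27me3 inside. In 586 members both ends fell in the same domain, which the merging distance brings about for any gap of up to 3 kb. The 593 members lay in 562 domains, 537 of which held a single member. Another H3K4me3 region lay in the domain of 202 members (34.1%), and 23 members shared a flanking H3K27me3 region with another member.

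A few domains stood apart by how many H3K4me3 regions they held. The domain with the most members was on chromosome 11 from 3023299 to 3099830, with 5 members among 17 H3K4me3 regions in 76.5 kb. On chromosome 6, the domain from 47686944 to 47728535 held 3 members among 15 H3K4me3 regions in 41.6 kb, and that from 47596457 to 47637178 held 3 among 11 in 40.7 kb. In all, 13 members were in 5 domains with 10 or more H3K4me3 regions. Among these 13 were 3 of the named members with extreme reach and the wider member with 3 gaps. The copy number of these sequences was not tested. Without these 13 the median gap was 236.5 bp and the median reaches were 600.5 and 1615 bp, all inside the intervals given above.

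Seen from the H3K27me3 list, short gaps between neighbouring regions lay inside H3K4me3 regions more often than long ones. These counts take in H3K4me3 regions of other classes as well as members. Of 7500 autosomal gaps under 100 bp, 330 (4.40%, 95% Wilson interval 3.96 to 4.89%) were inside an H3K4me3 region that took in bases on both sides. The share was 2.93% (2.70 to 3.17%) of 19696 gaps of 100 to under 500 bp, 1.41% (1.23 to 1.63%) of 13240 gaps of 500 to under 1000 bp and 0.388% (0.326 to 0.461%) of 32497 gaps of 1000 to under 5000 bp. A longer gap needs a wider H3K4me3 region, which by itself lowers these shares. The share of gaps that touched an H3K4me3 region at all varied little, at 4.96%, 4.59%, 4.19% and 5.55%.

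Members were found on every autosome but not evenly. They made up 4.63% (95% Wilson interval 3.71 to 5.78%) of H3K4me3 regions on chromosome 11, with 74 members, and 0.847% (0.389 to 1.84%) on chromosome 18, with 6. Chromosomes 3 and 14 were next to lowest, at 1.34% (15 members) and 1.36% (11 members), and the median autosome was at 2.87%. As a share of H3K4me3 regions with any H3K27me3, the order at the extremes was the same, at 13.0% (10.5 to 16.0%) on chromosome 11 and 2.73% (1.26 to 5.82%) on chromosome 18. On the X chromosome, outside the rule, 3 of 701 H3K4me3 regions had the same form.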

How the data were processed

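Each deposited list gives a start, an end, a MACS peak name and a score for every region. The score has no stated scale; the authors' deposited values start at 50.01 (H3K4me3) and 50 (H3K27me3) and pile up at 3100, and they were compared only within a list. Top score means 3100 or more. The submitters' processing notes name Bowtie 1.1.2 and build mm9. The version, threshold and control of MACS were not given in the sources used here. No read counts or depths were used, so the depth is unknown. How gaps are joined by the caller decides how many short gaps exist.

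Starts were read as 0-based. The highest region number for H3K27me3 is 117514, while the list holds 117512 regions. Members, rules and lists were chosen with earlier results of these data known. Regions were named by rule: the 5 widest single gaps, most gaps, longest shorter reaches, most uneven reaches and most central gaps, and the 3 nearest the rule on either side; where 5 were ranked, some are not printed. No test was run, since the rule used the overlap and there is 1 library per mark. Intervals are 95% Wilson intervals for shares and 95% binomial order-statistic intervals for medians. Intervals were computed with SciPy 1.17.1, NumPy 2.4.6 and pandas 2.3.3 in Python 3.11.15, and figures were drawn with matplotlib 3.10.9. The script was tested on simulated lists, and its member count and gap lengths differed by 0 from those of bedtools 2.31.1.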

Additional observations from a re-analysis of the deposited data

How the results depend on the processing

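Of 170 values recomputed over 19 alternatives, 93 stayed inside the interval of the reported value (for the count of members, within 1.5 times), and 77 moved. The median gap position stayed inside its interval under every alternative that recomputed it. With sides set by coordinate and not by strand, this says little about how central the gaps were. Leaving out members in domains with 10 or more H3K4me3 regions was chosen after seeing the data. Where values moved, the cause was not tested, except that alternatives that drop or merge short gaps raise the gap width by construction.

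With at least 100 bp outside H3K27me3, the share of autosomal H3K4me3 regions was 2.12%, the median gap 320 bp, the H3K4me3 width 2324 bp and the top-score share 52.2%. With at least 200 bp there were 323 members (1.53%, per chromosome 1.58%), a gap of 492 bp, a longer reach of 1508 bp, a width of 2428 bp, a top-score share of 56.3% and a weaker flank score of 224. With at least 500 bp there were 164 members (0.777%, per chromosome 0.769%), a gap of 880 bp, reaches of 468.5 and 1446 bp, a width of 2719.5 bp, a top-score share of 65.2%, a flank score of 144 and 72.6% in domains of 10 kb or more. Merging H3K27me3 regions up to 200 bp apart gave 327 members (1.55%, per chromosome 1.58%), a gap of 502 bp, reaches of 662 and 1978 bp, a width of 2428 bp, a top-score share of 57.2% and a flank score of 243. Merging up to 500 bp gave 174 members (0.825%, per chromosome 0.836%), a gap of 885 bp, reaches of 676.5 and 2564.5 bp, a width of 2750.5 bp, a top-score share of 67.2%, a flank score of 186 and 73.0% in long domains.

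H3K27me3 regions with a score of at least 100 gave a share of 2.28%, reaches of 704 and 1828 bp, a flank score of 458 and 61.3% in long domains. The upper 50% of H3K27me3 regions gave 2.19%, 727 and 1940 bp, 484 and 61.8%. Among H3K4me3 regions at the top score there were 284 members (2.54%), a gap of 293.5 bp, a shorter reach of 473 bp and a width of 2891 bp. Below it there were 309 (3.11%), a gap of 169 bp, reaches of 655 and 1780 bp and a width of 1649 bp. Asking for 200 bp of H3K27me3 inwards from each end gave 1.96% (per chromosome 1.88%), a width of 2375 bp, a top-score share of 55.0% and a flank score of 397. Members with 1 gap were 2.55%, and members with both ends over 100 bp from the end of H3K27me3 were 2.47%, with reaches of 663.5 and 1773 bp.

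Reach depended most on merging. The shorter and longer sides had medians of 1434 and 4474 bp when H3K27me3 regions up to 1 kb apart were merged, 2954 and 11963 bp at 3 kb and 4828 and 20538 bp at 5 kb. No paired analysis was possible because there was a single library for either mark. Depth, which sets whether weak H3K27me3 in a gap is called, is unknown.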
